A study of Homo sapiens with 6 samples.

Results

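The 10 genes described here are *SMAD2*, *SMAD3*, *SMAD4*, *SMAD6*, *SMAD7*, *ID1*, *ID2*, *ID3*, *BMP4* and *BAMBI*, chosen by name for their place in BMP and TGF-β signalling, out of 19225 symbols in the expression table. The choice was made with earlier results of these data known. All 10 passed the filter on low values that left 12884 genes to test. SW480, a cell line from a colon tumour that carries mutant p53, has plasmid transfection as the labelled treatment of every library, controls included, and mRNA enriched with oligo(dT) was sequenced. There were 3 control libraries and 3 MDM4 libraries, which the labels call exercised and which were read as the cells given MDM4 plasmid because no other group stands beside the control. The study's text gives transient transfection with MDM4 plasmid for the sequencing and stable cells for its co-culture, and the labels do not say which were sequenced, what the control plasmid carried, how long after transfection RNA was taken, or whether the replicates were separate cultures, so p-values measure only the spread between these libraries, which may be technical. Expression was deposited as FPKM, a read density corrected for how long the gene is and how deeply the library was sequenced. Differences are given on the log2(FPKM + 0.1) scale, which understates the change of low genes, and a gene was called at an adjusted p under 0.05 in limma with Benjamini-Hochberg adjustment over all genes tested.

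BMP and TGF-β are secreted ligands that bring together type I and type II receptors at the cell surface. The receptors phosphorylate receptor SMADs, with SMAD2 and SMAD3 on the TGF-β side and SMAD1, SMAD5 and SMAD9 on the BMP side, which join SMAD4 and enter the nucleus. The *ID* genes are classic targets of the BMP branch, and their proteins bind E proteins and keep them from DNA, while *SMAD6*, *SMAD7* and *BAMBI* are targets that feed back to inhibit the pathway.

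The libraries had between 32921705 and 44562219 reads on genes, as recovered from the FPKM steps. *MDM4*, the gene on the plasmid, had FPKM values of 6.35, 7.09 and 5.13 in the controls and of 188, 185 and 56.3 in the MDM4 libraries, in order of replicate. Each MDM4 library was above each control library, and MDM4 replicate 3 held far less *MDM4* RNA than MDM4 replicates 1 and 2. Both replicate 3 libraries stood apart from replicates 1 and 2 across the genome, and they are compared with the other 4 libraries below. Replicate 3 was singled out with earlier results of these same libraries known, so its p-values describe the libraries and are no independent evidence. A list of 10 interferon-stimulated genes summed to 515, 532 and 143 FPKM in the controls and to between 128 and 133 FPKM in the MDM4 libraries. Of 8 colon epithelium markers, 6 were at 0.5 FPKM or more in every library, with sums of 3230 to 3836 FPKM over the list, and *KRT20* and *CDX1* were under the filter. Sums of 6 fibroblast markers (1.61 to 3.84 FPKM), 4 endothelium markers (0.316 to 0.673 FPKM) and 5 leukocyte markers (5.66 to 6.70 FPKM) were low.

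The bases upstream of *ID1*, *ID3* and *SMAD6*, which were higher together in replicate 3, and of *BAMBI*, which holds matches to all 3 motifs searched, are shown here. Each window is the 250 bases before a RefSeq start on GRCh38.p14, read 5′ to 3′ on the strand of the gene. Capitals mark matches on either strand to GGCGCC (a SMAD-binding element rich in GC, which is its own reverse complement), GCCGNCGC (also from BMP-responsive elements) or CAGAC (which contains the short SMAD box). *ID1* lies on chromosome 20 (chr20:31605039-31605288, plus strand), *ID3* on chromosome 1 (chr1:23559502-23559751, minus strand), *SMAD6* on chromosome 15 (chr15:66701986-66702235, plus strand) and *BAMBI* on chromosome 10 (chr10:28677271-28677520, plus strand).
ID1: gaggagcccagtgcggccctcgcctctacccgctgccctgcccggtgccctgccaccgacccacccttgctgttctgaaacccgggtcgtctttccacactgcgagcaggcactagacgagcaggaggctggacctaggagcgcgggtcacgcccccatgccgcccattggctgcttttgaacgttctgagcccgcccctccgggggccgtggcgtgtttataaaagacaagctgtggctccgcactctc
ID3: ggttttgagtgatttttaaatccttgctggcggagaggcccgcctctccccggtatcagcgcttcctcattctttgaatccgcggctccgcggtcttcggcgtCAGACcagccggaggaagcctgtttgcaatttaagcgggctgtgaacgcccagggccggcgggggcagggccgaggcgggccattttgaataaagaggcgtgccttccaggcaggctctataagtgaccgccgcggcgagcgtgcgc
SMAD6: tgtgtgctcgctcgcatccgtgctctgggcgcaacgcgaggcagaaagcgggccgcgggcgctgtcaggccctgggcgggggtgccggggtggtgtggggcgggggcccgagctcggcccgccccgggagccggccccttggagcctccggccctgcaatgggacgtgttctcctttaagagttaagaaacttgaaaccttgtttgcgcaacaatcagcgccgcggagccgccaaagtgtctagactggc
BAMBI: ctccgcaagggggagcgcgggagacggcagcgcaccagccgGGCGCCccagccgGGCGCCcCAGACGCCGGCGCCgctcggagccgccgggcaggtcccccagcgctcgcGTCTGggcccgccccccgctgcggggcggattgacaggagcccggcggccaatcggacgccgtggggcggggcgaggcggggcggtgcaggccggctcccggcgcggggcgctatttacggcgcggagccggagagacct

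Of these windows, *ID1* and *SMAD6* held no match, *ID3* held 1 CAGAC at 147 to 143 bases before the start, and *BAMBI* held 3 GGCGCC, 1 GCCGNCGC and 2 CAGAC, with 5 bases that lie in 2 motifs. Among 35116 promoter windows of the same length, 16.4% held GGCGCC, 12.9% held GCCGNCGC and 38.0% held CAGAC on either strand, and among windows of the genes tested the shares were 24.9%, 19.8% and 36.4%. The *BAMBI* window was 81.2% G or C, against medians of 58.0% and 64.8% in these sets, and the shares were not matched for this content. Both *SMAD2* windows (84.4% and 78.4% G or C) and the first *SMAD3* window (80.8%) also held GGCGCC and GCCGNCGC. A match is a description of letters, and no match says only that they are absent from this window. The 10 genes had 19 windows in the RefSeq table, and 6 genes had 1 window each.

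Per length of gene, *BMP4* was the most abundant of the 10 at a mean of 144 FPKM over the 6 libraries, followed by *ID1* (97.2), *ID2* (93.7), *BAMBI* (38.5), *SMAD3* (23.9), *ID3* (19.5), *SMAD7* (8.54), *SMAD2* (7.90), *SMAD4* (4.62) and *SMAD6* (1.61). Neighbours in this order overlapped between libraries for *BMP4* and *ID1*, *ID1* and *ID2*, *SMAD3* and *ID3*, and *SMAD7* and *SMAD2*. The other neighbours did not overlap. *SMAD6* had the fewest reads, 108 to 327 per library, and *BMP4* the most, 6335 to 13906.

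**Figure D1:**
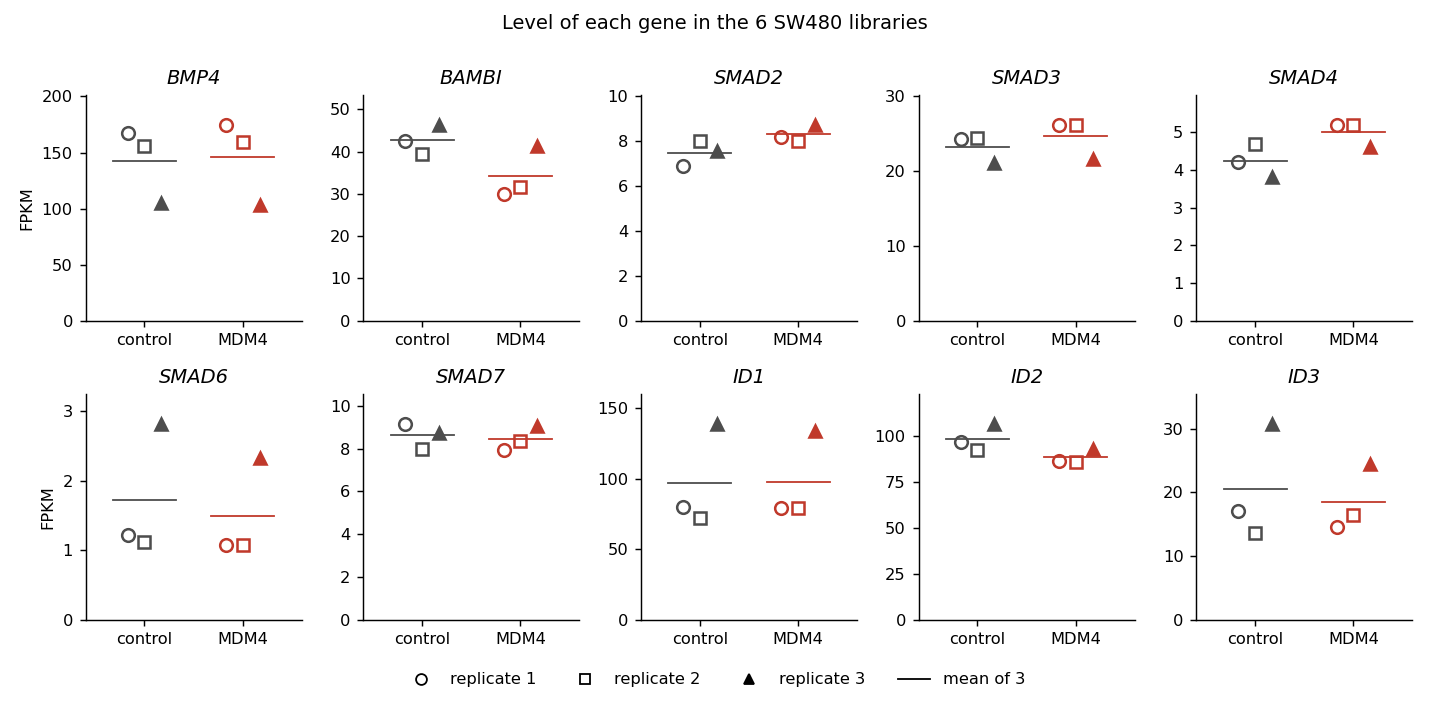
FPKM (vertical axes, each from 0) of the 10 genes in the control and MDM4 libraries; each symbol is a library and each line the mean of 3. The filled triangles of replicate 3 lie above all open symbols for *ID1*, *ID3* and *SMAD6* and below all of them for *BMP4* and *SMAD3*.

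In replicate 3 of both groups, the BMP target genes *ID1* and *ID3* and the inhibitor *SMAD6* were higher, while the ligand *BMP4* was lower. The rest of the BMP branch was mixed. *ID2* differed by only 0.15 on the log2 scale, and *SMAD7* was not called. Of 7 other BMP target genes tested, 3 were called higher and 1 lower. The ligands *BMP6*, *BMP7* and *BMP8B* were higher, and *BMP8A* was not called. *ID1*, *ID3* and *SMAD6* were 1.76-fold, 1.78-fold and 2.18-fold higher in replicate 3 than in replicates 1 and 2, and *BMP4* was 1.58-fold lower. Of the 10 genes, 7 were called, 5 higher and 2 lower. Across all 12884 genes 44.1% were called, 29.6% higher and 14.6% lower, so 7 of 10 stands beside a background in which calls are common. The median log2 difference was 0.12 over the 10 genes and 0.09 over all genes tested. The libraries of replicate 3 did not overlap those of replicates 1 and 2 for 5 of the 10 genes, against 55.7% of all genes tested.

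*BMP4*, a secreted BMP ligand, was at 167 and 156 FPKM in control replicates 1 and 2, 175 and 159 in MDM4 replicates 1 and 2, 105 in control replicate 3 and 103 in MDM4 replicate 3. Both replicate 3 libraries were below all of the others. The log2 difference was -0.66 (SE 0.056, limma adjusted p = 2.33e-05), and 9.80% of the genes tested differed by as much in either direction. In RNA from bulk cells, fewer expressing cells and less RNA per cell cannot be told apart. *BAMBI*, a membrane protein like a type I receptor without a kinase that blocks signalling, had values of 42.5, 39.4 and 46.4 FPKM in the controls and of 30, 31.6 and 41.3 FPKM in the MDM4 libraries, in order of replicate. Replicate 3 was the highest library in each group, but MDM4 replicate 3 was below control replicate 1, so the sets overlapped. The log2 difference of replicate 3 was 0.30 (SE 0.070, adjusted p = 0.00572), and without MDM4 replicate 3 it was 0.18 (adjusted p = 0.215).

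Among the receptor SMADs of the TGF-β side, *SMAD3* was lower in replicate 3 and *SMAD2* was not called. *SMAD3* was at 24.3, 24.4 and 21.0 FPKM in the controls and 26.2, 26.1 and 21.6 FPKM in the MDM4 libraries, in order of replicate. Both replicate 3 libraries were the lowest, at a log2 difference of -0.24 (SE 0.059, adjusted p = 0.00744). The call was lost without control replicate 3 (-0.28, adjusted p = 0.0672) and without MDM4 replicate 3 (-0.21, adjusted p = 0.156). *SMAD2* was at 6.87, 8.01 and 7.58 FPKM in the controls and 8.18, 8.02 and 8.74 FPKM in the MDM4 libraries, with a replicate 3 log2 difference of 0.07 (95% interval -0.13 to 0.26). *SMAD4*, the partner shared by both branches, was at 4.21, 4.69 and 3.81 FPKM in the controls and 5.21, 5.19 and 4.61 FPKM in the MDM4 libraries. Replicate 3 was the lowest library of each group, and the log2 difference was -0.19 (SE 0.097, adjusted p = 0.126).

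The inhibitory SMADs differed from each other. *SMAD6*, which acts mainly on BMP receptors and SMADs, was at 1.22, 1.12 and 2.82 FPKM in the controls and 1.08, 1.08 and 2.32 FPKM in the MDM4 libraries. Both replicate 3 libraries were above all others, the nearest libraries of these sets being 1.91-fold apart. The log2 difference was 1.12 (SE 0.15, adjusted p = 0.000237), a size that 1.82% of the genes tested reached. *SMAD7*, which inhibits both branches, was at 9.17, 7.97 and 8.72 FPKM in the controls and 7.93, 8.37 and 9.08 FPKM in the MDM4 libraries, and its replicate 3 log2 difference was 0.09 (95% interval -0.10 to 0.28, adjusted p = 0.423). The sets overlapped for *SMAD7*.

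The *ID* genes encode helix-loop-helix proteins without a DNA-binding region. *ID1* was at 80.0, 72.1 and 139 FPKM in the controls and 79.2, 79.4 and 134 FPKM in the MDM4 libraries. Replicate 3 was far above the other libraries in both groups, with a log2 difference of 0.81 (SE 0.057, adjusted p = 9.39e-06), and 5.70% of the genes tested differed by as much. *ID3* was at 17.1, 13.7 and 30.8 FPKM in the controls and 14.5, 16.5 and 24.5 FPKM in the MDM4 libraries. The replicate 3 libraries again lay above all others, with a log2 difference of 0.83 (SE 0.11, adjusted p = 0.000191), a size reached by 5.23% of the genes tested. *ID2* was at 97.0, 92.4 and 107 FPKM in the controls and 86.6, 85.8 and 93.4 FPKM in the MDM4 libraries, and the sets overlapped. Its log2 difference of 0.15 (SE 0.050, adjusted p = 0.0333) was a size that 63.3% of the genes tested reached, and the call was lost without control replicate 3 (0.12, adjusted p = 0.327) or without MDM4 replicates 1 (0.16, adjusted p = 0.0811), 2 (0.15, adjusted p = 0.0876) or 3 (0.18, adjusted p = 0.147).

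**Figure D2:**
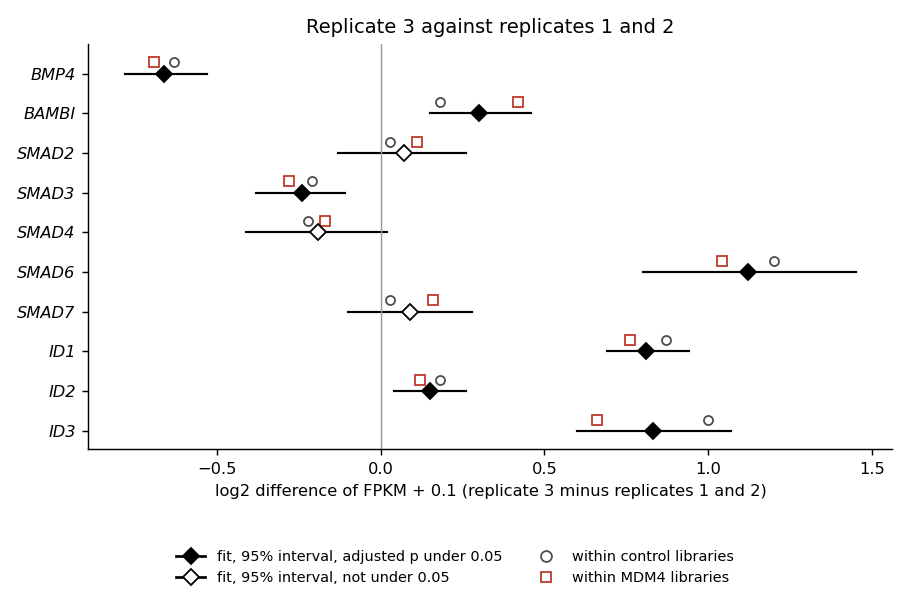
Log2 difference of FPKM + 0.1, replicate 3 minus replicates 1 and 2 (horizontal axis), for each gene; diamonds with lines are the limma estimate and its 95% interval (filled for an adjusted p under 0.05), circles the difference within the control libraries and squares that within the MDM4 libraries. Circle and square lie on the same side of 0 for each of the 10 genes, from -0.63 and -0.69 for *BMP4* to 1.2 and 1.04 for *SMAD6*.

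The difference of replicate 3 had the same sign within the control libraries as within the MDM4 libraries for all 10 genes, as for 83.9% of all 12884 genes tested. For *SMAD2* and *SMAD7* the difference within the controls was 0.03, less than the gaps of 0.22 and -0.20 from control replicate 1 to control replicate 2. *ID1* differed by 0.87 and 0.76, *ID3* by 1.0 and 0.66, *SMAD6* by 1.2 and 1.04 and *BMP4* by -0.63 and -0.69 in control and MDM4 libraries. Replicates 1 and 2 of a group were at most 0.31 apart on the log2 scale over the 10 genes, for *ID3* in the controls, with a median gap of 0.09. Other signals also differed in replicate 3, and their part in these results was not tested. *MDM4* RNA was lower (-1.05, limma adjusted p = 0.00296), which averages -0.38 within the controls and -1.73 within the MDM4 libraries. Of 9 interferon-stimulated genes tested 3 were called lower and 0 higher (median -0.96). These interferon values average groups that differ. The listed interferon genes summed to 515, 532 and 143 FPKM in the controls, where replicate 3 was far lower. In the MDM4 libraries the sums were 128, 133 and 131 FPKM, in order of replicate. Of 6 colon epithelium markers tested 1 was higher (*VIL1*, 0.50, adjusted p = 0.00811) and 1 lower (*KRT8*, -0.15, adjusted p = 0.0136), with a median of 0.08. *COL1A1*, the 1 fibroblast marker of 6 that passed the filter, was higher (0.92, adjusted p = 0.000865).

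How the libraries are scaled to each other bears on the smaller differences. Of the genes called, 67.0% were higher in replicate 3 on FPKM as deposited, 45.4% after median ratio scaling and 51.1% after quantile normalization, and the median of all genes moved from 0.09 to -0.01 and 0.02. *SMAD4* was called lower under median ratio scaling (-0.30, adjusted p = 0.0322) and quantile normalization (-0.41, adjusted p = 0.00641), and *ID2* lost its call under the former (0.04, adjusted p = 0.505). *SMAD2* and *SMAD7* changed sign under both without being called. *ID1*, *ID3*, *SMAD6* and *BMP4* kept their direction under all of the alternatives tried and were called in each one that gives a test.

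Ratios within a library do not depend on its scaling. *ID1* stood to *BMP4* at 0.478 and 0.462 in control replicates 1 and 2, 0.453 and 0.50 in MDM4 replicates 1 and 2, and 1.32 and 1.30 in control and MDM4 replicate 3. *ID1* was thus below *BMP4* in 4 libraries and above it in both of replicate 3. *SMAD6* stood to *SMAD7* at 0.133 and 0.141 in control replicates 1 and 2, 0.136 and 0.129 in MDM4 replicates 1 and 2, and 0.324 and 0.256 in control and MDM4 replicate 3. The ratio of *ID1* to *ID3* ranged from 4.50 to 5.47 and overlapped between the sets.

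**Figure D3:**
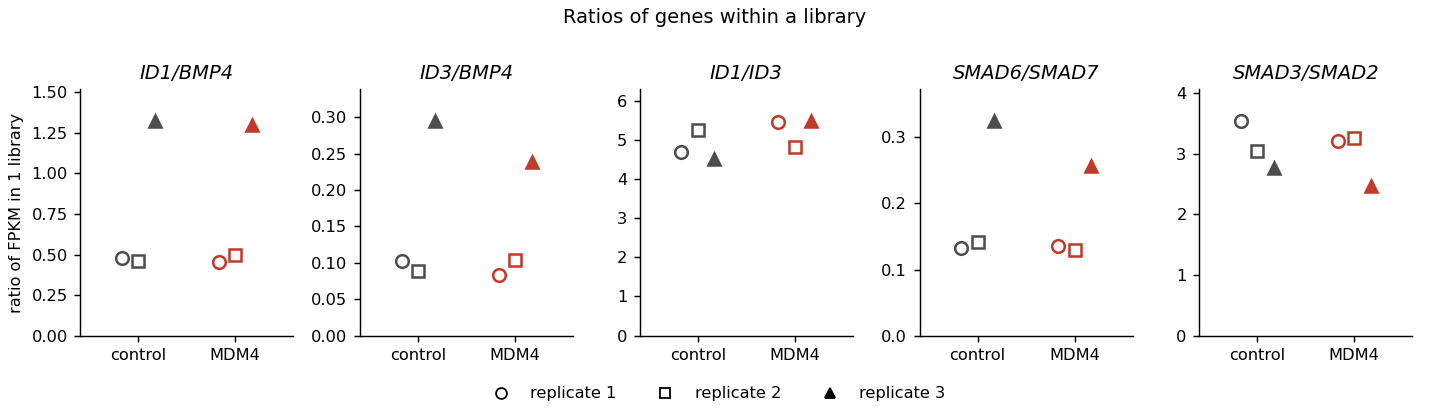
Ratio of the FPKM of 2 genes within each library (vertical axes, each from 0) in the control and MDM4 groups; each symbol is a library. *ID1*/*BMP4* is at 1.32 and 1.30 in replicate 3 and at most 0.50 in the other libraries, while *ID1*/*ID3* overlaps.

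Over 6 libraries and 5259 genes with a range of at least 0.5 on the log2 scale, the profiles most like the mean centred profile of *ID1*, *ID2* and *ID3* were those of *RPS6KA1* (r = 0.999), *EVI5L* (r = 0.998), *CLDN4* (r = 0.997), *ADORA1* (r = 0.997) and *SPATA7* (r = 0.996). *CLDN4*, a tight junction claudin, was at 90.3, 79.6 and 128 FPKM in the controls and 80.6, 84.2 and 118 FPKM in the MDM4 libraries. All of these correlations share the same libraries and the same gap between replicate 3 and the rest.

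The other genes of the pathway came from lists with 92 symbols, of which 91 were in the table and 70 passed the filter. In replicate 3, 36 of the 70 (51.4%) were called, 27 higher and 9 lower, with a median log2 difference of 0.20. Of all genes tested 44.1% were called, 29.6% higher and 14.6% lower, with a median of 0.09. The calls of listed genes are on FPKM as deposited, and whether they hold under the other scalings was not examined. Of 11 listed ligands of the wider BMP and TGF-β family tested, 7 were higher and 1 was lower (median 0.50). The higher ligands were *INHBE* (1.56), *GDF15* (0.75), *GDF11* (0.65), *BMP8B* (0.54), *BMP6* (0.50), *BMP7* (0.46) and *TGFB1* (0.33), and *TGFB2* was lower (-0.64), as *BMP4* was. *BMP7*, another BMP ligand, thus went the other way from *BMP4*, with 25.8, 23.6 and 32.2 FPKM in the controls and 20.1, 19.1 and 28.2 FPKM in the MDM4 libraries. *INHBE* was at 0.341 to 0.445 FPKM in replicates 1 and 2 and at 1.17 and 1.56 FPKM in replicate 3. It passed the filter of 0.5 FPKM on the mean of all 6 libraries only through replicate 3, so its call is not separate from the filter. The counts and medians of the lists include it and other genes near the filter. Of 11 receptors, 7 were higher and 0 lower (median 0.42). Those higher were *ACVRL1* (0.84), *ACVR1* (0.52), *BMPR2* (0.45), *TGFBR3* (0.44, limma adjusted p = 0.0368), *ACVR1B* (0.42), *TGFBR1* (0.40) and *BMPR1A* (0.23, limma adjusted p = 0.0391). *ACVRL1* also lay near the filter, at 0.327 to 0.570 FPKM in replicates 1 and 2 and at 0.895 and 0.902 FPKM in replicate 3. *ENG*, a co-receptor, had a value of 0.50 (adjusted p = 0.0649).

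Of 7 extracellular inhibitors, *TWSG1* was higher (0.29), while the BMP antagonist *NOG* (0.73, adjusted p = 0.0588) and the latent TGF-β binding protein *LTBP1* (0.23, adjusted p = 0.161) were not called. Among 17 other SMADs and regulators (median -0.05), the deubiquitinase *USP9X* (0.44) and *SKIL* (0.26, limma adjusted p = 0.0443) were higher. The ubiquitin ligase *SMURF2* (-0.24) and the corepressors *SKI* (-0.31) and *TGIF1* (-0.15, limma adjusted p = 0.0439) were lower. The BMP receptor SMADs *SMAD1* (-0.16, adjusted p = 0.121), *SMAD5* (0.02, adjusted p = 0.849) and *SMAD9* (0.44, adjusted p = 0.150) were not called. Of 7 other BMP target genes (median 0.55), the homeobox gene *MSX2* (0.82), *RUNX2* (0.63) and *DLX2* (0.55) were higher, *MSX1* was lower (-0.29), and *PTGER4* was not called (0.67, adjusted p = 0.0644). *MSX2* was at 8.07, 7.35 and 13.5 FPKM in the controls and 6.66, 7.23 and 12.5 FPKM in the MDM4 libraries.

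TGF-β target genes were divided, with 6 of 15 higher and 4 lower (median -0.01). Among those higher were the cyclin-dependent kinase inhibitors *CDKN1A* (0.63) and *CDKN2B* (0.52), *ITGB6* (0.61), *SNAI1* (0.32) and *JUNB* (0.21). Among those lower were *LTBP2* (-0.81), *CTGF* (-0.51) and *PMEPA1* (-0.49). Of the E proteins that ID proteins bind, *TCF12* was higher (0.39) and *TCF3* was not called (-0.05, adjusted p = 0.553). With no filter on low values 31.6% of 17189 genes were called in replicate 3, and of 19 listed genes under the filter 4 were, namely *HEY1* (0.98, adjusted p = 0.0138, 17 to 57 reads), *ATOH8* (0.77, adjusted p = 0.0157, 12 to 45 reads) and *ACVR1C* (0.87, adjusted p = 0.0116, 73 to 208 reads) higher and *INHBA* (-1.12, adjusted p = 0.0131, 11 to 92 reads) lower.

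**Figure D4:**
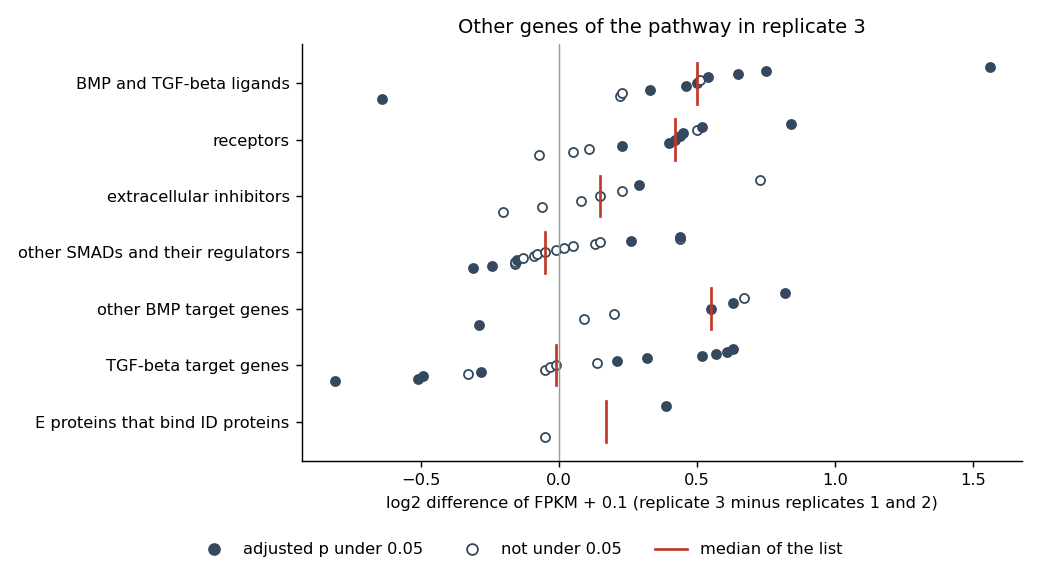
Log2 difference of FPKM + 0.1, replicate 3 minus replicates 1 and 2 (horizontal axis), of the tested genes of each pathway list; each point is a gene, filled for an adjusted p under 0.05, and the red line is the median of the list. Receptors have 7 filled points above 0 and 0 below, while TGF-β target genes have 6 above and 4 below. Of all genes tested, 29.6% were called higher and 14.6% lower.

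MDM4 against control, the comparison the series was made for, called none of the 10 genes. In limma 0 of 12884 genes (0%) were called, 222 had an unadjusted p under 0.05, and voom on the recovered reads also called 0. Of the 10 genes 1 had an unadjusted p under 0.05, 5 were above 0 and 5 below, and the median was -0.00 against -0.01 over all genes. *MDM4* itself, at a log2 difference of 4.33 (SE 0.43), had an adjusted p of 0.161, and it was called with the replicate number as a block (adjusted p = 4.77e-05). That block called 2 genes (0.0155%), the block with voom 29 (0.225%), and replicates 1 and 2 alone 69 (0.536%), with 0 of the 10 genes in each.

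*BAMBI* had the largest difference of the 10 genes between the groups, at -0.33 (SE 0.13, 95% interval -0.63 to -0.02, unadjusted p = 0.0384, adjusted p = 1.0 in limma). It was lower in the MDM4 library of each of the 3 same-numbered pairs, by -0.50, -0.32 and -0.17, but the groups overlapped, since MDM4 replicate 3 was above control replicate 2. Over the alternatives its value ranged from -0.47 to -0.24 and its adjusted p from 0.0563, in replicates 1 and 2 alone, to 1.0. *SMAD2* was the 1 gene of the 10 whose groups did not overlap (background 6.85%), with 7.49 ± 0.573 FPKM (SD, n = 3) in the controls and 8.31 ± 0.379 FPKM (SD, n = 3) in the MDM4 libraries. Its groups barely separated, with control replicate 2 at 8.01 FPKM and MDM4 replicate 2 at 8.02 FPKM. An exact two-sided permutation test gave p = 0.10, the smallest that 3 against 3 libraries allow. *SMAD4* was higher in the MDM4 library of each pair, by 0.30, 0.14 and 0.27, and *ID2* lower, by -0.16, -0.11 and -0.20, at adjusted p = 1.0 each.

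The intervals show what these libraries could resolve. That of *ID2* ran from -0.33 to 0.02 and that of *SMAD7* from -0.28 to 0.23, whereas that of *SMAD6* ran from -1.14 to 0.82, that of *ID3* from -0.82 to 0.62, that of *ID1* from -0.64 to 0.69 and that of *BMP4* from -0.52 to 0.57. The wide intervals belong to the genes that differed most in replicate 3. With the replicate block the intervals of *BAMBI* (-0.48 to -0.17), *ID2* (-0.27 to -0.05) and *SMAD4* (0.03 to 0.44) did not include 0, at adjusted p = 0.219, 0.311 and 0.360 in limma, while those of *ID1* (-0.10 to 0.15), *BMP4* (-0.08 to 0.13) and the other 5 genes did. Of the 10 genes, 3 had an unadjusted p under 0.05 with the block and 4 with the block and voom, against 1 without it.

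**Figure D5:**
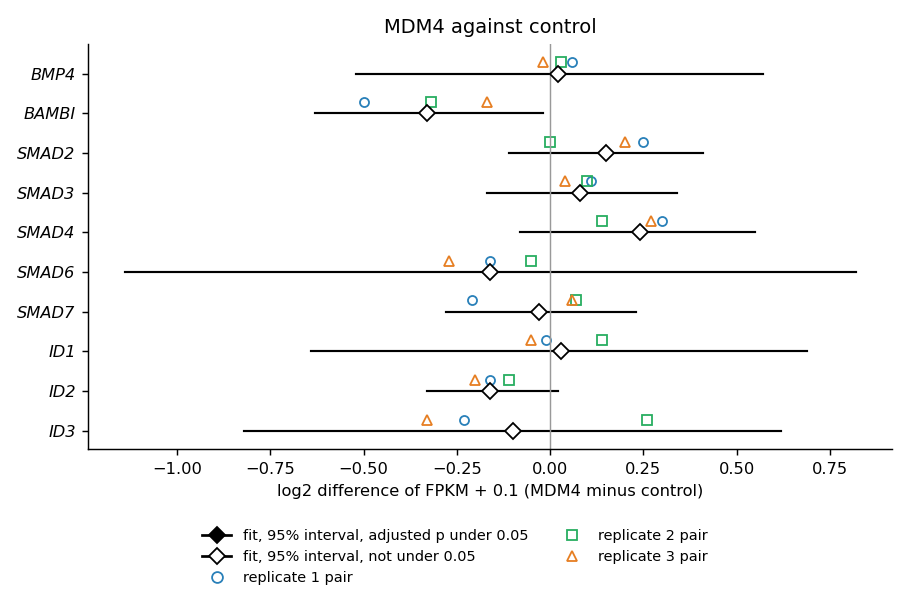
Log2 difference of FPKM + 0.1, MDM4 minus control (horizontal axis), for each gene; open diamonds with lines are the limma estimate and its 95% interval, and the other symbols are the 3 same-numbered pairs of libraries. The 3 pairs of *BAMBI* lie at -0.50, -0.32 and -0.17, and no gene was called.

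The MDM4 difference itself was compared between replicate 3 and replicates 1 and 2 with an interaction term, in which replicate 3 has 1 library per group. The difference is MDM4 minus control and keeps its sign, so a higher one can be a smaller decrease and need not be a larger change. Across all genes 25 (0.194%) were called in limma, 24 with a higher MDM4 difference in replicate 3 and 1 with a lower one, and 293 had an unadjusted p under 0.05. None of the 10 genes was called (0 of 10), 0 had an unadjusted p under 0.05, and voom on the recovered reads called 0 of them. The widest gaps among the 10 were those of *ID3* (-0.34, 95% interval -0.78 to 0.09) and *BAMBI* (0.24, 95% interval -0.06 to 0.55). *MDM4* itself was called (-1.35, SE 0.15, adjusted p = 0.00166), with its RNA lower in MDM4 replicate 3. Of 9 interferon-stimulated genes tested, the interaction was 1.24 to 3.25 for *IFI6*, *MX1*, *OAS1*, *ISG15*, *IFIT2*, *IFI27* and *IFIT1*. It was 1.51 for *IFIT3* and 0.83 for *OAS2*. *IFI6* was at 162, 170 and 21.3 FPKM in controls and 15.2, 16.7 and 19.6 FPKM in MDM4 libraries, in order of replicate. Its lower level in the MDM4 libraries thus lay mostly in replicates 1 and 2. In replicate 3 over both groups, *OAS2* (-1.90), *IFI27* (-0.96) and *ISG15* (-0.73) were called lower. *OAS2* was lower in both groups (6.27, 5.39 and 1.09 FPKM in controls, 2.57, 3.22 and 0.960 FPKM in MDM4 libraries). The differences of *IFI27* and *ISG15* lay mostly in the controls. *IFI27* was at 54.6, 53.5 and 12.9 FPKM in controls and 10.3, 7.42 and 9.61 FPKM in MDM4 libraries. *ISG15* was at 232, 240 and 92.7 FPKM in controls and 89.8, 95.7 and 86.1 FPKM in MDM4 libraries.

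Some values carry limits from gene structure. In GENCODE release 29 on GRCh38, *SMAD2* overlaps 4 other genes, *SMAD3* 2 antisense genes, *SMAD4* and *SMAD6* 1 each, and *ID2* the antisense gene *ID2-AS1*. Whether the counting used strand is not stated. The genes that overlap *SMAD4* (protein-coding) and *SMAD6*, and some of those that overlap *SMAD2*, lie on the same strand. Counting by strand would not separate these. *ID1* lies on chromosome 20 from 31605283 to 31606515, *ID3* on chromosome 1 from 23557918 to 23559794, *SMAD6* on chromosome 15 from 66702228 to 66782848 and *BMP4* on chromosome 14 from 53949736 to 53958761, and *ID1*, *ID3* and *BMP4* overlap no other annotated gene. The FPKM steps imply gene lengths of 1114 bases for *ID1*, 1239 for *ID3*, 2879 for *SMAD6* and 1857 for *BMP4*.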

How the data were processed

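The authors deposited FPKM values per gene symbol for 6 libraries, of mRNA enriched with oligo(dT) and sequenced on an Illumina platform. The aligner, counter, genome build, annotation and test are not given in the sources used here. Columns carry a letter and a number, read as control or MDM4 and the replicate. Each value is a whole number of steps worth 1 read, from which reads were recovered for 17189 of 17189 genes above 0 (100%, within 0.02 of a whole read). These reads gave the depth and the voom alternatives.

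Genes whose mean reached 0.5 FPKM were fitted as log2(FPKM + 0.1) with limma 3.58.1 in R 4.3.3 (lmFit, eBayes with trend), with terms for group, for group and replicate 3, or for their interaction. Benjamini-Hochberg adjustment ran over all genes tested. Single values used exact permutation tests in scipy 1.17.1, and tables and plots used Python 3.11.15, numpy 2.4.6, pandas 2.3.3 and matplotlib 3.10.9. The scripts were checked on data with known answers. The 10 genes, the lists and the comparisons were chosen with earlier results of these data known. Genes named are *MDM4*, the 10 genes, every called gene of a pathway list and the 3 with the largest replicate 3 difference in it, and the 5 genes nearest to the *ID* profile. Some called genes of the TGF-β target list are counted but not reported here by name. Listed genes under the filter, *BMP7*, *INHBE*, *ACVRL1*, *MSX2* and *IFI6* levels and the markers *VIL1*, *KRT8* and *COL1A1* were picked out after their values were seen.

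Same-numbered libraries were taken as pairs because their deviations from the group means correlated across genes at 0.46, 0.45 and 0.78. Replicates 1 and 2 correlated across numbers as well, at 0.46 and 0.44, so the check sets replicate 3 apart and does not tell 1 from 2. Alternatives were pseudocounts of 0.5 and 1, no filter and a filter of 1 FPKM, TPM, median ratio and quantile scaling, eBayes without trend, voom, each library left out (same genes tested), the replicate block with and without voom, replicates 1 and 2 alone, a replicate 3 term, and no group term. Promoters are from RefSeq on GRCh38.p14 and gene positions from GENCODE, whose build may not be that of the counts. Protein sequences were not used here.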

Additional observations from a re-analysis of the deposited data

How the results depend on the processing

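The number of genes called between MDM4 and control rose from 0 to 2 with the replicate block, 29 with the replicate block and voom, 69 in replicates 1 and 2 alone and 2 with a term for replicate 3, and it ranged from 0 to 21 when 1 library was left out, with 21 without control replicate 3 and 1 without MDM4 replicate 3. None of these fits called any of the 10 genes, so the pairing changed no call among them. The sign of some uncalled MDM4 differences changed. Leaving out 1 library gave -0.51 to 0.24 for *SMAD6*, -0.08 to 0.02 for *SMAD7*, -0.23 to 0.31 for *ID1*, -0.35 to 0.23 for *ID3* and -0.19 to 0.25 for *BMP4*, TPM scaling gave 0.00 for *SMAD7*, and replicates 1 and 2 alone gave 0.01 for *ID3*. In replicate 3 against replicates 1 and 2, the genes called ranged from 2424 (without MDM4 replicate 3) to 6424 and were 2848 without control replicate 3, and the 10 genes called ranged from 4 (without MDM4 replicate 3) to 7. *SMAD2* went to -0.03 and -0.07 and *SMAD7* to -0.01 and -0.03 under median ratio scaling and quantile normalization. *BAMBI* (adjusted p = 0.0911) and *ID2* (adjusted p = 0.130) lost their calls with no group term, and *ID2* also with eBayes without trend (adjusted p = 0.107). The interaction called 0 genes with no filter and 5 with eBayes without trend, in place of 25. Causes of these shifts were not tested. With 1 replicate 3 library per group, the interaction rests on the spread of replicates 1 and 2.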
